A study of Mus musculus with 17 samples.

Results

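Common myeloid progenitors (CMPs) of adult bone marrow in which LIN28B had been induced were compared with CMPs of wild-type fetal liver, to ask which features of the fetal cells the induced adult cells did not carry. The comparison takes every library that the labels assign to these groups, 7 of the 17 in the series. Wild-type fetal liver had 3 libraries, inducible LIN28B bone marrow 2, and inducible LIN28B bone marrow with vavcre 2. The 3 wild-type bone marrow libraries serve as the adult reference. All these mice were C57BL/6J, and the cells were sorted by flow cytometry. The design text describes induction in the vavcre line as limited to blood-forming cells, and names no such limit for the line without it. The labels record exposure to doxycycline, as the means of raising Lin28b, for all libraries, wild type included. The labels state neither ages nor doses nor how long induction lasted. Nor do they tie each library to its own animal, so the spread behind the p-values may in part be technical.

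CMPs are the shared source of the granulocyte, monocyte, red cell and platelet lineages. LIN28B is an RNA-binding protein of embryonic and fetal cells that blocks the maturation of the let-7 family of microRNAs, which in turn lower messages that carry a match to their seed in the 3′ untranslated region (3′UTR). Lin28b itself and the fetal genes Hmga2, Igf2bp1, Igf2bp2 and Igf2bp3 are textbook let-7 targets, and LIN28B is known for giving adult blood stem and progenitor cells fetal traits.

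Levels are CPM, counts divided by TMM-scaled library size. Differences between groups are log2 ratios with their standard error from 1 edgeR quasi-likelihood fit over 13558 genes, and a call means an adjusted p (Benjamini-Hochberg, over all those genes) below 0.05. "Induced marrow" means the average of the lines without and with vavcre, each with equal weight, and values for the line without vavcre alone stand beside it where they matter. Counts per library ranged from 14957111 to 22218742 over these 10 libraries. The vavcre libraries stood apart. Their log2 levels correlated at 0.941 with each other, below the 0.980 of the libraries without vavcre and the 0.983 to 0.986 of fetal liver, and the third principal component (16.0% of the variance) set replicate 4 at 78.5 and replicate 6 at -82.0. Xist, the RNA of the inactive X chromosome, stood at 164 and 173 CPM in the vavcre libraries and at 2.0 and 0.913 CPM in those without vavcre. The Y-linked Ddx3y stood at 0.295 and 4.43 CPM with vavcre and at 157 and 143 CPM without, so sex and line cannot be told apart. Fetal liver held both kinds of signal, with Xist at 107, 45.8 and 6.82 CPM and Ddx3y at 0.0908, 53.7 and 93.5 CPM in replicates 1, 4 and 5. In bulk RNA, fewer cells of a type and less RNA per cell cannot be told apart.

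The let-7 family is shown first because the question turns on messages it recognises. Its mature members share the seed, bases 2 to 8, here in capitals (RefSeq, GRCm38.p6):
let-7a-5p: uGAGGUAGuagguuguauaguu
let-7b-5p: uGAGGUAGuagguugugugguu
let-7c-5p: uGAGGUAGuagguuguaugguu
let-7g-5p: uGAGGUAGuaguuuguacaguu
let-7i-5p: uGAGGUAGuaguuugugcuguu
The complement of this seed, CTACCTC on the message strand, was searched in the longest annotated 3′UTR of each gene (GENCODE vM21, GRCm38). A match is a run of letters and not proof of a site. It was present 4 times each in Hmga2, Igf2bp1 and Lin28b, and once each in Igf2bp2 and Igf2bp3, the genes that stayed far below the fetal level in induced marrow. Examples, with the match in capitals, are:
Hmga2, chr10:120362983-120363012, minus strand: aatccccactcctcaataCTACCTCtgaat
Igf2bp1, chr11:95959353-95959382, minus strand: aaccagcagtgctattaaCTACCTCagccc
Igf2bp2, chr16:22059469-22059498, minus strand: aaaacacacaaataaaagCTACCTCaggtg
Igf2bp3, chr6:49086783-49086812, minus strand: acgtgcatttttactcaaCTACCTCaggta
Lin28b, chr10:45378644-45378673, minus strand: acatatacttgttagtaaCTACCTCtgagt
Of the 45 tested members of a wider let-7 target list, 33 (73.3%) held a match. Its members Dicer1, Ccnd1 and Plag1, described below, held none. The same letters stand once each in the 3′UTRs of Arid3b, E2f5, Nras and Cbx2, let-7 targets with no called gap between fetal liver and the mean of both induced lines:
Arid3b, chr9:57790357-57790386, minus strand: ttatatttcaataaagctCTACCTCttcac
E2f5, chr3:14605726-14605755, plus strand: gaaacttgggactattatCTACCTCtataa
Nras, chr3:103064356-103064385, plus strand: gagacctcttcagaataaCTACCTCctcac
Cbx2, chr11:119029270-119029299, plus strand: aatggcttcctgctgattCTACCTCtctgg

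The genes of the LIN28B axis stayed far below the fetal level in induced marrow. Of 6 tested axis genes 5 were higher in fetal liver than in induced marrow and none was lower, where 17.7% of all tested genes were called higher and 15.0% lower (32.6% in either direction). Hmga2 (NM_010441, chromosome 10, 120361268 to 120476469 in GRCm38), a chromatin protein of fetal stem cells, stood at 536, 520 and 542 CPM in fetal liver. It stood at 60.9 and 59.5 CPM without vavcre and at 85.8 and 92.2 CPM with vavcre, against 31.9, 28.5 and 35.4 CPM in wild-type marrow. All 4 induced libraries thus lay above every wild-type marrow library and below every fetal one, and their mean was 14.0% of the fetal mean. The fetal liver minus induced difference was 2.86 ± 0.15 (adjusted p = 4.89e-09), and the induced minus wild-type marrow difference 1.20 ± 0.15 (adjusted p = 0.000359). These comparisons share the induced libraries.

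The Igf2bp genes, which encode RNA-binding proteins of fetal growth, stood at most at 13.5 CPM in induced marrow. Igf2bp1 stood at 218, 184 and 218 CPM in fetal liver and at 1.70, 0.269, 2.07 and 0.548 CPM in the induced libraries, 0.554% of the fetal mean. Its difference was 7.53 ± 0.41 (adjusted p = 6.82e-09). Igf2bp2 stood at 229, 225 and 254 CPM against 6.80, 6.66, 11.9 and 6.71 CPM, a difference of 4.90 ± 0.20 (adjusted p = 5.68e-10). Its induced level was not called apart from the 8.34, 5.68 and 5.70 CPM of wild-type marrow (difference 0.26, 95% interval -0.17 to 0.69). Igf2bp3 was the member with a called rise in induced over wild-type marrow (1.0 ± 0.20, adjusted p = 0.00463), from 3.96 ± 0.25 to 8.13 ± 3.59 CPM (SD, n = 3 and n = 4). It reached 2.90% of its fetal level of 280.5 ± 6.68 CPM (SD, n = 3).

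Lin28b itself (NM_001031772; GRCm38 chromosome 10, 45376617 to 45486314) reached 89.3, 99.6 and 124 CPM in fetal liver. It stood at 2.06 and 3.28 CPM without vavcre and 1.73 and 3.92 CPM with vavcre, against 0.745, 0.0586 and 0.274 CPM in wild-type marrow. Induced marrow was above wild-type marrow by 2.86 ± 0.46 (adjusted p = 0.00133) and below fetal liver by a log2 difference of 5.24 ± 0.30 (adjusted p = 1.64e-08). Which LIN28B sequence was induced is not stated in the labels, and these are counts on the mouse Lin28b transcript, so they need not measure the induced message. Lin28a, its paralog, stayed under 2 CPM in every library and was not called. Arid3a, a let-7 target with 3 transcripts, passed no filter and was not tested.

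**Figure D1:**
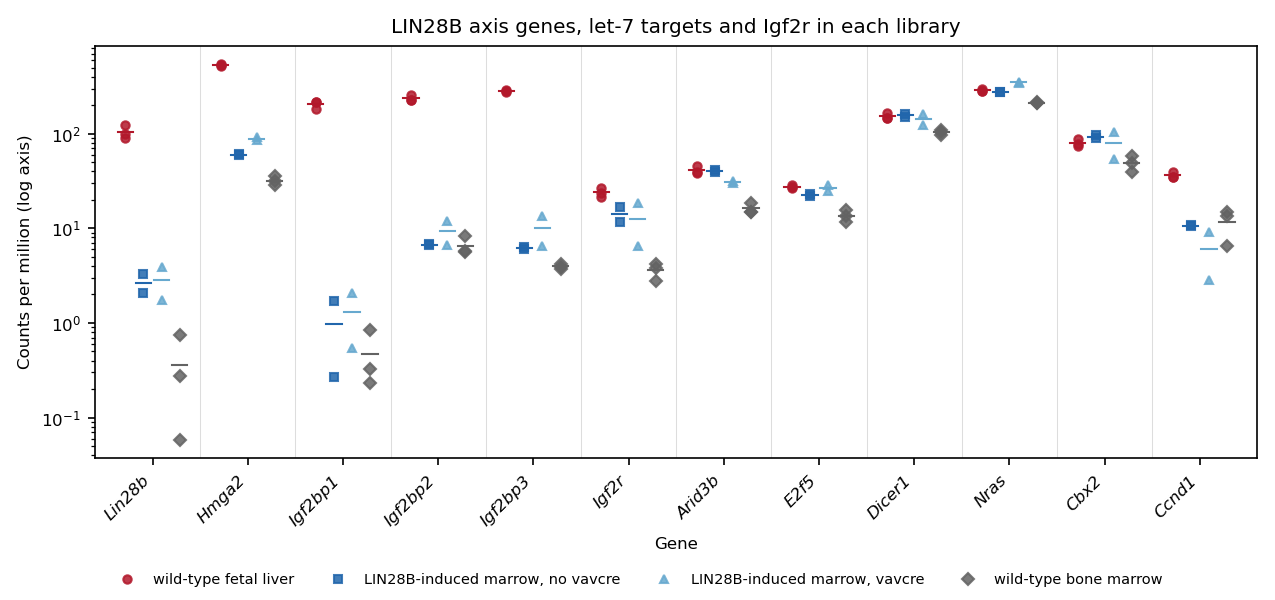
CPM (log axis) of 12 genes, the axis genes, let-7 targets and the imprinted Igf2r, in each wild-type fetal liver, LIN28B-induced and wild-type bone marrow library; points are libraries and bars group means. Hmga2 in the 4 induced libraries lies between wild-type marrow and fetal liver, the Igf2bp genes lie near wild-type marrow, and Arid3b, E2f5, Dicer1, Nras and Cbx2 lie near or within the fetal range.

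The wider list of let-7 targets, which holds 5 of the axis genes, gave calls in both directions. Of its 45 tested members 13 were higher and 9 lower in fetal liver than in induced marrow, and against the line without vavcre 13 were higher and 5 lower, where 10.8% and 10.2% of all tested genes were called. Against wild-type marrow 20 were higher and 5 lower in fetal liver (13.9% and 13.2% of all genes). In induced marrow 17 were higher and 1 lower than in wild-type marrow (6.59% and 7.86% of all genes). The axis genes make up 5 of the 13 calls above induced marrow and 3 of the 17 above wild-type marrow. The list's median difference between fetal liver and induced marrow was 0.23, beside 0.01 over all tested genes, and its median between fetal liver and wild-type marrow was 0.55, beside -0.08 over all genes.

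Arid3b, a DNA-binding protein, stood at 39.8, 45.8 and 38.7 CPM in fetal liver, at 41.0 and 39.1 CPM without vavcre, at 30.4 and 31.9 CPM with vavcre, and at 18.7, 15.1 and 14.9 CPM in wild-type marrow. Every induced library was above every wild-type marrow library (1.12 ± 0.13, adjusted p = 0.000188), and the gap to fetal liver was 0.23 (95% interval -0.03 to 0.49). E2f5, a cell cycle transcription factor, stood at 26.9 to 28.4 CPM in fetal liver, 22 to 28.7 CPM in induced marrow and 11.7 to 15.7 CPM in wild-type marrow, with a gap to fetal liver of 0.16 (interval -0.14 to 0.45). Dicer1, the enzyme that cuts microRNA hairpins, stood at 145 to 165 CPM in fetal liver and 123 to 164 CPM in induced marrow, a gap of 0.03 (interval -0.17 to 0.23), against 97.1 to 108 CPM in wild-type marrow. For the signalling GTPase Nras the gap was -0.10 (interval -0.23 to 0.02), for the Polycomb protein Cbx2 -0.10 (interval -0.50 to 0.30), and for the helicase Ddx19a 0.19 (interval -0.04 to 0.42). All 6 were called higher both in fetal liver and in induced marrow than in wild-type marrow, comparisons that share those libraries. They were named after their values were seen. Against the line with vavcre alone 2 of them had a called gap, Arid3b with fetal liver higher (0.41, adjusted p = 0.0396) and Nras with fetal liver lower (-0.28, adjusted p = 0.00548). A gap that misses the threshold does not show equal levels, and Ddx19a was called higher in fetal liver without vavcre replicate 4 (0.29, adjusted p = 0.0446).

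Further members of the list lay between the wild types or past the fetal level. The replication nuclease Dna2 stood at 196 to 232 CPM in fetal liver, 159 to 181 CPM in induced and 98.6 to 120.3 CPM in wild-type marrow, with called differences at each step (0.34 and 0.65). Tgfbr1, a TGF-beta receptor, stood higher in induced marrow (128 to 177 CPM) than in fetal liver (101 to 116 CPM, difference -0.46 ± 0.12, adjusted p = 0.00681) and in wild-type marrow (71.2 to 98.6 CPM). Its gap to fetal liver was not called against the line without vavcre (-0.31, adjusted p = 0.127), nor in a fit of the 7 libraries alone (adjusted p = 0.0613).

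Not called above wild-type marrow was cyclin D1 (Ccnd1), which drives entry into the cell cycle. It stood at 35.0, 35.0 and 39.5 CPM in fetal liver and at 10.7, 10.5, 9.16 and 2.83 CPM in induced marrow, against 14.8, 13.6 and 6.57 CPM in wild-type marrow. The fetal gap was 2.19 ± 0.31 (adjusted p = 7.87e-05), and induced marrow was not called apart from wild type (-0.55, interval -1.22 to 0.12). Lower in fetal liver than in both marrow groups were Gatm, a creatine synthesis enzyme (39.6 to 44.1 CPM in fetal liver, 86.8 to 166 CPM in induced marrow, difference -1.47 ± 0.13, adjusted p = 1.14e-06), and the growth factor receptor Igf1r (80.5 to 85.2 against 136 to 163 CPM, difference -0.85 ± 0.10, adjusted p = 1.65e-05). Igf1r was also called higher in induced than in wild-type marrow (0.36 ± 0.10, adjusted p = 0.0247), while Gatm was not called apart there (-0.16, adjusted p = 0.434).

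Seed matches were counted in each set of called genes. Of all tested genes with a 3′UTR, 10.3% held at least 1 match (1257 of 12184). The share was 9.96% of genes higher and 11.7% of genes lower in fetal liver than in induced marrow. It was 16.0% of genes higher and 8.26% of genes lower in induced than in wild-type marrow. Among genes at least 2-fold higher in fetal liver than in wild-type marrow (2.94% of tested genes) it was 14.3%. Among those at least 2-fold lower (6.18% of tested genes) it was 11.5%. Among genes at least 2-fold higher in fetal liver than in induced marrow (6.45% of tested genes) the share was 10.8%. Among those at least 2-fold lower (5.58% of tested genes) it was 13.2%. The median 3′UTR was 997 bases long among genes higher in fetal liver than in induced marrow, 833 bases among genes higher in induced than in wild-type marrow, and 1113 bases over all tested genes. These shares describe sets that share libraries and were not tested against each other.

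Among the 14 tested genes of let-7 processing and silencing, 3 were higher and 3 lower in fetal liver than in induced marrow. These counts are near the shares of all tested genes (17.7% and 15.0%). The list's median difference was 0.01, beside 0.01 over all tested genes, so the values below describe single genes. Xpo5, which exports microRNA hairpins from the nucleus, stood at 197, 225 and 209 CPM against 122, 155, 96.1 and 70.0 CPM (0.97 ± 0.12, adjusted p = 1.58e-05). Ran, the GTPase that powers this export and much other transport, stood at 1602 to 1728 CPM against 1032 to 1117 CPM (0.64 ± 0.06, adjusted p = 2.01e-06). Tnrc6c, a scaffold of the silencing complex, was lower in fetal liver (49.5 to 54.4 against 57.7 to 89.4 CPM, -0.60 ± 0.13, adjusted p = 0.00262).

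The 12 largest called excesses of fetal liver, among genes without overlap and at 10 CPM or more there, include Lin28b, Igf2bp1 and Igf2bp3. The other 9 stood at most at 2.61 CPM in any induced library. They were chosen for having no overlap between fetal and induced libraries, as 16.1% of tested genes had with fetal liver higher, so that is no result about them. Evc2, a component of Hedgehog signalling at the cilium, stood at 18.5, 17.1 and 21.9 CPM in fetal liver and rested on 4 counts over the 4 induced libraries, a ratio of 393 (exact 95% counting interval 153 to 1444). Spats2 stood at 32.5, 32.0 and 42.1 CPM and rested on 9 counts in induced marrow, a ratio of 323 (interval 170 to 707). These intervals pool the counts of each group, so they cover counting error and leave out the spread between libraries. Reads carried no molecular identifiers, so even counting error may be understated. The actin-bundling protein Fscn1 stood at 77.9, 67.5 and 84.5 CPM in fetal liver against 0.607, 0.430, 0 and 0.253 CPM. Wild-type marrow stood at 0.0165 CPM of Evc2, 0.872 CPM of Spats2 and 0.413 CPM of Fscn1 on average, so in these genes both marrow groups were far from fetal liver.

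The remaining 6 were the membrane protein Dcbld1, the cadherin Cdh17, Ndn, Fjx1, Ninl and Fstl1. Dcbld1 stood at 7.76, 11.7 and 12 CPM in fetal liver, at 0.850 and 0.0537 CPM without vavcre and at 0 in both vavcre libraries, at least 163-fold lower there by a floor of 3 counts over the line. Cdh17 stood at 12.7, 11.7 and 10.1 CPM against 0.121, 0.860, 0.0422 and 0 CPM. The fitted differences of genes with a line at or near 0 depend on the prior count. Against the line without vavcre alone they were 4.55 ± 1.08 (adjusted p = 0.00768) for Dcbld1 and 4.51 ± 1.28 (adjusted p = 0.0197) for Cdh17. Fjx1, a secreted regulator of growth, stood at 21.3 to 22.5 CPM against 0.0422 to 1.94 CPM (5.50 ± 0.49, adjusted p = 1.25e-06). The centrosomal protein Ninl stood at 42.4 to 44.1 CPM against 0.211 to 2.61 CPM (5.19 ± 0.40, adjusted p = 3.80e-07). The secreted glycoprotein Fstl1 stood at 35.3 to 37.0 CPM against 0.0844 to 1.65 CPM (5.07 ± 0.55, adjusted p = 7.65e-06). Of the 9, induced marrow was also called below wild-type marrow in Fjx1 (-1.66), Ninl (-2.12), Fstl1 (-2.66), Spats2 (-3.13, adjusted p = 0.00063) and Dcbld1 (-3.89, adjusted p = 0.0470), where the last value depends on the prior count.

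Ndn belongs to the list of imprinted and fetal growth genes. Of 11 tested members 5 were higher in fetal liver than in induced marrow and none was lower (17.7% and 15.0% of all genes). Against the line without vavcre 3 were higher (10.8% of all genes). The list's median difference between fetal liver and induced marrow was 1.85, and 1.03 without fetal liver replicate 5. Ndn (necdin), an imprinted growth suppressor, stood at 25.9, 27.7 and 33.6 CPM in fetal liver and at 0.364, 1.02, 0.422 and 0.591 CPM in induced marrow (5.59 ± 0.56, adjusted p = 3.34e-06). The imprinted zinc finger gene Peg3 stood at 8.08, 5.28 and 10.3 CPM in fetal liver and rested on 5 counts in induced marrow, a ratio of 129 (counting interval 55.0 to 400.1). Neither was called apart between induced and wild-type marrow. Igf2r, the receptor that clears IGF2, stood at 21.4, 23.9 and 26.9 CPM in fetal liver, 11.7, 17, 6.5 and 18.7 CPM in induced marrow and 4.22, 2.75 and 3.83 CPM in wild-type marrow. Its gap to fetal liver was 0.84 ± 0.27 (adjusted p = 0.0244), a call lost without fetal liver replicate 4 (adjusted p = 0.0563) or 5 (adjusted p = 0.0904) or without the no-vavcre replicate 1 (adjusted p = 0.0905). It was not called against the line without vavcre alone (0.75, adjusted p = 0.126). Igf2r was the member of this list called higher in induced than in wild-type marrow (1.89 ± 0.30, adjusted p = 0.00115).

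Among 21 tested developmental regulators of blood, 4 were higher and 5 lower in fetal liver (17.7% and 15.0% of all genes). The growth-promoting zinc finger gene Plag1 stood at 7.62, 8.67 and 6.71 CPM against 0.668, 0.645, 0.0844 and 2.11 CPM (3.17 ± 0.59, adjusted p = 0.000755). The endothelial transcription factor Sox18 stood at 4.22, 7.38 and 8.43 CPM against 0.303 and 0.322 CPM without vavcre (4.38 ± 0.63, adjusted p = 0.000205) and 0 in both vavcre libraries. Ezh1, the histone methyltransferase of adult Polycomb complexes, was lower in fetal liver (39.0 to 41.7 against 48.4 to 74.8 CPM, -0.69 ± 0.13, adjusted p = 0.000764).

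Some lymphoid genes were higher in fetal liver. Of 21 tested members 7 were higher and 1 lower than in induced marrow (17.7% and 15.0% of all genes). Against the line without vavcre 7 were higher and none lower (10.8% and 10.2%), and against wild-type marrow 8 and none (13.9% and 13.2%). On the per-library median of the list, relative to wild-type marrow, the vavcre libraries (0.595 and 0.599 in log2 units) lay between those without vavcre (0.034 and -0.081) and fetal liver (0.912 to 1.59). Rag1, which cuts antigen receptor genes for rearrangement, stood at 12.3, 6.84 and 9.57 CPM in fetal liver and rested on 4 counts in the induced libraries, a ratio of 200.3 (counting interval 77.8 to 738). Its partner Rag2 stood at 42.7, 38.5 and 37.0 CPM against 14.9, 6.88, 13.3 and 12.6 CPM (1.73 ± 0.29, adjusted p = 0.000318). Il7r, the interleukin-7 receptor, stood at 37.1, 24.9 and 22.8 CPM in fetal liver, at 0.971 and 2.10 CPM without vavcre and at 6.54 and 5.70 CPM with vavcre (3.20 ± 0.47, adjusted p = 0.000103). Tcf7, a transcription factor of early T cells, stood at 21.9, 13.1 and 17.5 CPM against 2.25, 1.34, 0.675 and 0.591 CPM (4.03 ± 0.56, adjusted p = 6.07e-05). No fetal library overlapped an induced one in these 4 genes, which held with fetal liver higher for 16.1% of tested genes. The 4 were named for their small p, so that is no result about them. The summed level of the whole list ran from 271 to 329 CPM in fetal liver, 124 to 228 CPM in induced marrow and 137 to 140.0 CPM in wild-type marrow. Fgd5, a gene of blood stem cells and endothelium, had a like pattern (65.2, 63.3 and 72.7 CPM in fetal liver, 5.83, 8.17, 0.0844 and 2.36 CPM in induced marrow, difference 4.51 ± 0.65, adjusted p = 8.17e-05). Of 17 tested stem and multipotent progenitor genes 5 were higher and 3 lower in fetal liver (17.7% and 15.0% of all genes). The part of lymphoid or stem-like cells in the sort was not tested.

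**Figure D2:**
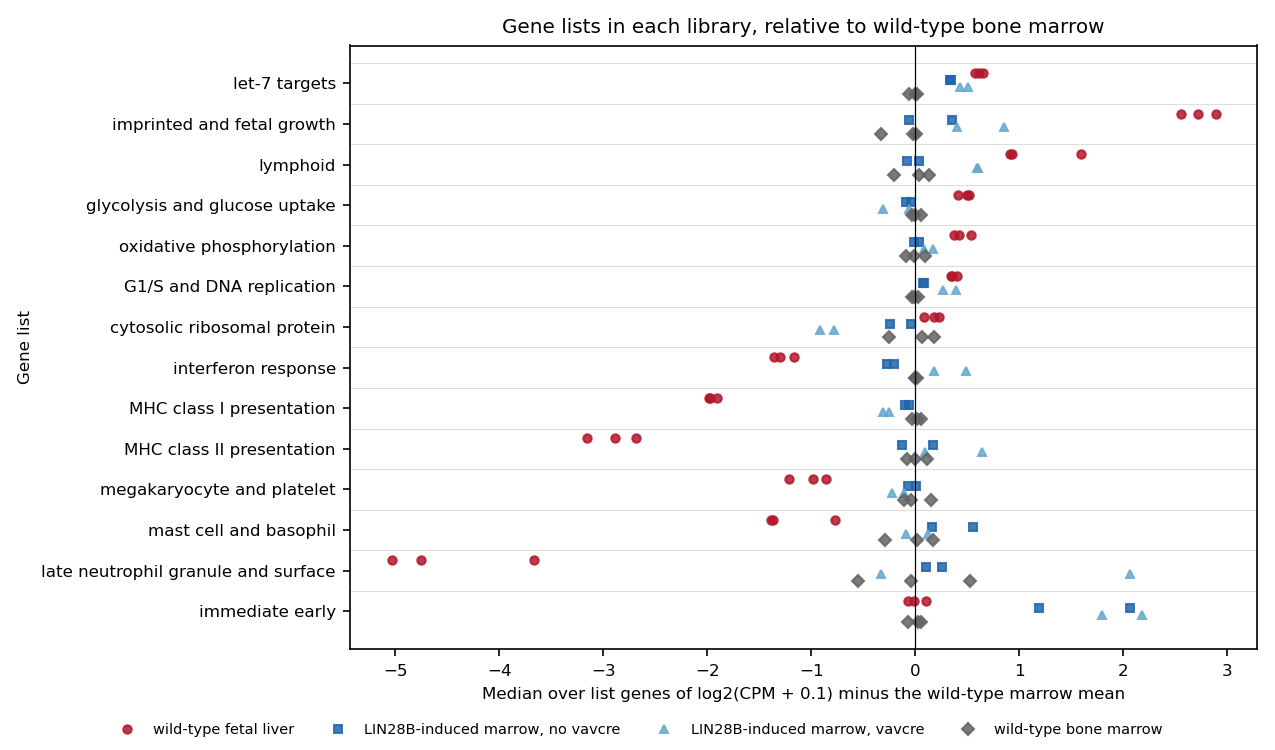
Median over the genes of each list of log2(CPM + 0.1) minus the mean of wild-type bone marrow, per library; points are libraries, coloured by group. The fetal libraries stand far from 0 in the imprinted, MHC, interferon and late neutrophil lists while most induced libraries lie close to wild-type marrow, and only the immediate early list sets all 4 induced libraries apart from both wild types by over 1 on this scale.

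Genes of energy metabolism were higher in fetal liver. Of 72 tested oxidative phosphorylation genes, 49 were higher and none lower in fetal liver than in induced marrow (17.7% and 15.0% of all genes). Against the line without vavcre 48 were higher and none lower (10.8% and 10.2% of all genes). The list's median difference between fetal liver and induced marrow was 0.36. Atp5a1 and Atp5b encode the catalytic core of ATP synthase. Atp5a1 stood at 1939, 2073 and 2069 CPM in fetal liver and 1398, 1470, 1222 and 1108 CPM in induced marrow (0.65 ± 0.06, adjusted p = 1.75e-06), against 1208 to 1359 CPM in wild-type marrow. Atp5b stood at 2230 to 2527 CPM against 995 to 1663 CPM (0.92 ± 0.09, adjusted p = 2.66e-06). Cox7c, a subunit of cytochrome c oxidase, stood at 141 to 156 CPM against 79.1 to 91.1 CPM (0.79 ± 0.08, adjusted p = 4.62e-06).

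Of 17 tested genes of glycolysis and glucose uptake 8 were higher and none lower in fetal liver (17.7% and 15.0% of all genes). The counts were the same against the line without vavcre (10.8% and 10.2% of all genes). The glucose transporter Slc2a1 stood at 112, 120.2 and 113 CPM in fetal liver and 39.2, 42.0, 18.1 and 35.2 CPM in induced marrow (1.81 ± 0.18, adjusted p = 3.18e-06), against 23.8 to 32.6 CPM in wild-type marrow. The glycolytic enzymes Tpi1 (489 to 564 against 194 to 281 CPM) and Pgk1 (702 to 834 against 349 to 427 CPM) differed by 1.19 ± 0.10 and 0.98 ± 0.08. No fetal library overlapped an induced one in these genes, named for their small p, as in 16.1% of tested genes with fetal liver higher. Induced and wild-type marrow were not called apart in Slc2a1, Tpi1 or Pgk1. The mitochondrial chaperone Hspd1 and the cytosolic chaperone Hsp90ab1 were also higher in fetal liver, Hspd1 at 2214 to 2302 against 737 to 1054 CPM (1.39 ± 0.08, adjusted p = 8.64e-09) and Hsp90ab1 at 4394 to 4810 against 2558 to 3365 CPM (0.69 ± 0.06, adjusted p = 1.82e-06).

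Replication genes showed a smaller gap. Of 32 tested G1/S and DNA replication genes 11 were higher and 3 lower in fetal liver than in induced marrow. The shares of all tested genes were 17.7% and 15.0%. Against the line without vavcre 15 members were higher and 1 lower (10.8% and 10.2%), and against wild-type marrow 18 and 1 (13.9% and 13.2%). Ccne1 (cyclin E1), which starts S phase, stood at 85.5, 86.2 and 82.5 CPM in fetal liver, 23.7, 18.5, 31.3 and 32.3 CPM in induced marrow and 21.8 to 26.2 CPM in wild-type marrow (1.71 ± 0.18, adjusted p = 5.33e-06). Mcm4, a subunit of the replicative helicase, stood at 798 to 827 against 484 to 593 CPM (0.57 ± 0.06, adjusted p = 9.15e-06). Gins2, also of the helicase, stood at 84.2 to 102 against 48.6 to 76.5 CPM. Of 24 tested G2/M genes, 1 was higher and 8 were lower in fetal liver (17.7% and 15.0% of all genes). The higher one was Cdk1, the mitotic kinase (210.2 to 287 against 139 to 182 CPM, 0.67 ± 0.13, adjusted p = 0.000929). Against the line without vavcre 1 member was higher and none lower (10.8% and 10.2% of all genes), so the 8 lower calls rested on the vavcre line. Plk1, a mitotic kinase, stood at 128, 171 and 151 CPM in fetal liver, 160.3 and 153 CPM without vavcre and 442 and 352 CPM with vavcre. The spindle protein Hmmr stood at 119.5 to 139 CPM in fetal liver, 138 and 143 CPM without vavcre and 266 and 246 CPM with vavcre.

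Cytosolic ribosomal protein genes likewise differed by line. Of 75 tested members 61 were higher and 2 lower in fetal liver than in induced marrow (17.7% and 15.0% of all genes). But 16 were higher and 2 lower against the line without vavcre (10.8% and 10.2%), and 7 and 3 against wild-type marrow (13.9% and 13.2%). Between the lines 1 was higher and 54 lower with vavcre, where 9.37% of all genes were called higher and 11.3% lower. Rpl36 stood at 609, 608 and 690 CPM in fetal liver, 509.8 and 576 CPM without vavcre and 202 and 184 CPM with vavcre, against 626, 511 and 634 CPM in wild-type marrow. Rps27l, a ribosomal protein and p53 target, was higher in fetal liver than in all induced libraries (226 to 266 against 129.9 to 147 CPM, 0.81 ± 0.09, adjusted p = 1.24e-05). Rps19 was one of the lower members (-0.34 ± 0.06, adjusted p = 0.000532). Ribosomal protein genes have many near-identical copies in the genome that can take or lose reads, so single members are uncertain.

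Antigen presentation genes were lower in fetal liver than in both marrow groups. Of 13 tested MHC class I genes 11 were lower and 1 higher in fetal liver than in induced marrow. Of 7 tested MHC class II genes all 7 were lower. The median differences were -1.80 and -3.09, and of all genes 15.0% were lower and 17.7% higher. Against wild-type marrow 11 of 13 and 7 of 7 list members were lower in fetal liver (13.2% of all genes). Between induced and wild-type marrow 2 of 13 class I genes were lower and 1 of 7 class II genes higher (7.86% and 6.59% of all genes). Against the line without vavcre 10 of 13 and 7 of 7 were lower in fetal liver (10.2% of all genes). Nlrc5, the activator of MHC class I genes, stood at 0.908, 0.754 and 0.573 CPM in fetal liver, 58.2, 46.2, 60.1 and 60.7 CPM in induced marrow and 46.5, 46.3 and 46.7 CPM in wild-type marrow (-6.21 ± 0.27, adjusted p = 7.97e-10). H2-D1, a class I heavy chain, stood at 117, 119.5 and 131 CPM in fetal liver and 977, 909, 1017 and 1046 CPM in induced marrow (-3.01 ± 0.08, adjusted p = 6.66e-12). H2-K1, another, stood at 203, 216 and 216 CPM in fetal liver, 1531 and 1809 CPM without vavcre and 818 and 822 CPM with vavcre (-2.47 ± 0.13, adjusted p = 4.89e-09). Wild-type marrow stood at 1745, 1338 and 1704 CPM of H2-K1, and induced marrow was called lower than it (-0.45 ± 0.12, adjusted p = 0.0191). Class I heavy chain genes are near-identical in stretches, so reads can be lost or shared between them.

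MHC class II genes, which present peptides from outside the cell, were lower still in fetal liver in relative terms. H2-Ab1 stood at 9.40, 11 and 12.3 CPM in fetal liver, 66.1, 63.5, 53.0 and 62.5 CPM in induced marrow and 39.7, 32.4 and 31.6 CPM in wild-type marrow, so induced marrow was above wild type (0.82 ± 0.15, adjusted p = 0.00248) and further from fetal liver. The chaperone genes H2-Ob (8.48 to 10.6 against 64.5 to 100.1 CPM) and H2-DMa (36.0 to 44.6 against 148 to 216 CPM) differed by -3.09 ± 0.17 and -2.07 ± 0.12. No fetal library overlapped an induced one in any of these genes, which held with fetal liver lower for 13.8% of tested genes. They were named for their small p or for having no overlap, so that is no result about them.

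Interferon response genes followed the same direction. Of 38 tested members 28 were lower and 1 higher in fetal liver than in induced marrow (15.0% and 17.7% of all genes). Against the line without vavcre 24 were lower and 1 higher (10.2% and 10.8%), and against wild-type marrow 29 and none (13.2% and 13.9%). In induced against wild-type marrow 3 were higher and 2 lower, near the shares of all genes (6.59% and 7.86%). Oas3, a sensor of double-stranded RNA, stood at 1.04, 0.862 and 1.32 CPM in fetal liver, 19.7, 16.4, 22.5 and 21.3 CPM in induced marrow and 20.8, 16.5 and 25.0 CPM in wild-type marrow (-4.21 ± 0.39, adjusted p = 1.69e-06). Ifi44 rested on 6 counts over the fetal libraries, with 6.80 and 9.94 CPM without vavcre and 41.5 and 26.8 CPM with vavcre, a ratio of 225 (counting interval 103 to 613). Lgals3bp, a secreted glycoprotein, stood at 30.4 to 39.5 against 225 to 358 CPM (-2.88 ± 0.13, adjusted p = 1.66e-09), and Cmpk2, a mitochondrial nucleotide kinase, at 42.0 to 44.8 against 90.0 to 182 CPM (-1.49 ± 0.12, adjusted p = 6.25e-07).

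Promoters were searched for motifs, whose shares describe the lists and not the gap between the groups. The interferon-stimulated response element, searched as GAAA, any 2 bases and GAAA on both strands of the 300 bases from 250 before to 50 after each start, was present in 17 of 30 interferon list members with a promoter in RefSeq (56.7%) and in 4 of 11 MHC class I members (36.4%), against 3.71% of all tested genes and 3.99% of all promoters. It was present in none of 5 class II promoters and in 5.26% of late neutrophil genes. Among members lower in fetal liver the shares were alike, 12 of 21 interferon genes (57.1%) and 3 of 9 class I genes (33.3%). A second motif was TTCNNNGAA, where N is any base. It was present in 7 of 30 interferon promoters (23.3%), 2 of 11 class I promoters (18.2%) and none of 5 class II promoters. All tested genes held it in 8.13% and late neutrophil genes in 5.26%. The response element as spelled here was found in Oas3 and B2m but not in the promoters of Ifi44, Lgals3bp, Cmpk2, H2-D1 or H2-K1. Looser spellings of it were not searched, so those promoters may still hold the element. A match is a description of letters and not of binding. The promoter of Oas3 and that of B2m, the light chain of MHC class I, are shown as examples with the match in capitals (RefSeq, GRCm38.p6):
Oas3, chr5:120777610-120777909, minus strand: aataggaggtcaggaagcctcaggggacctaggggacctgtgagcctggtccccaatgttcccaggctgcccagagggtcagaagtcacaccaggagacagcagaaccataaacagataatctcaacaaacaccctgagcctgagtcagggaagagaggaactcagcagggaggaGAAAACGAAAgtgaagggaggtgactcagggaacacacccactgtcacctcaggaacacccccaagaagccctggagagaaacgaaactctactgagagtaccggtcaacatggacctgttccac
B2m, chr2:122147437-122147736, plus strand: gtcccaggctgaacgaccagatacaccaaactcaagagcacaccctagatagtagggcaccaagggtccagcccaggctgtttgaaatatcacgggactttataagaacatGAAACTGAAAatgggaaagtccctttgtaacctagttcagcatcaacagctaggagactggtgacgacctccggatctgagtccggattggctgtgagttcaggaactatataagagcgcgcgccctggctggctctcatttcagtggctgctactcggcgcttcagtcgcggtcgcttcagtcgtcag
B2m, named for its promoter after its values were seen, stood at 347, 366 and 380.2 CPM in fetal liver, 1053, 1156, 1138 and 1007 CPM in induced marrow and 1395, 1101 and 1461 CPM in wild-type marrow (-1.58 ± 0.11, adjusted p = 1.56e-07).

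**Figure D3:**
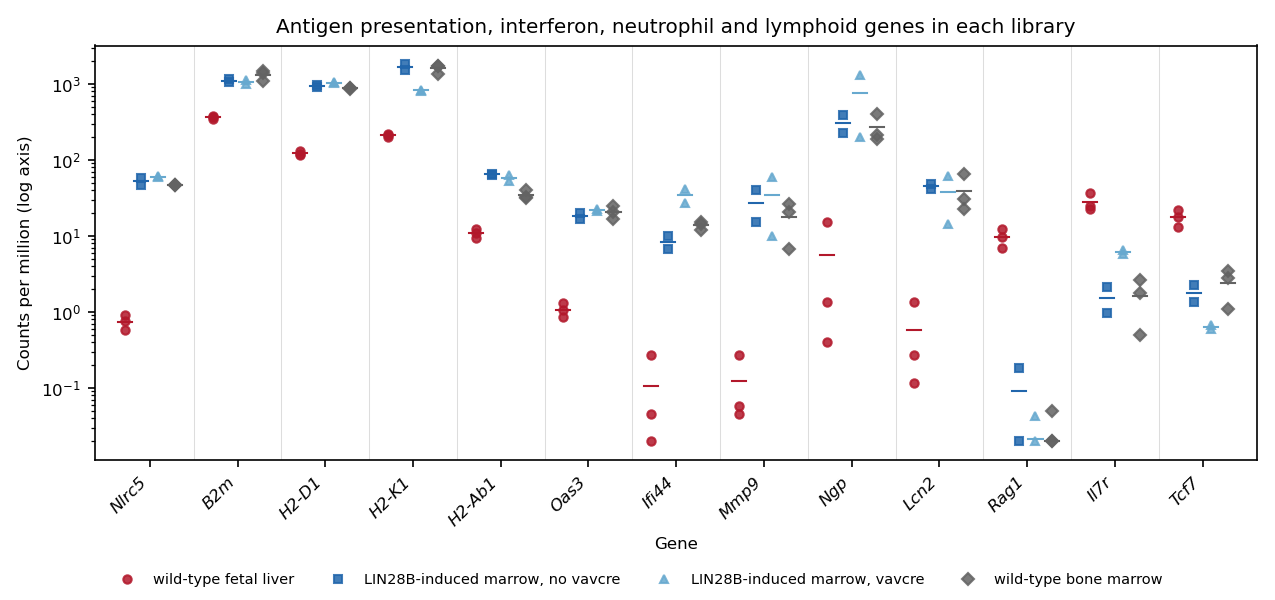
CPM (log axis) of antigen presentation, interferon, neutrophil and lymphoid genes in each library; points are libraries, bars group means, and a level of 0 is drawn at 0.02. The 3 fetal liver libraries lie below all marrow libraries from Nlrc5 to Lcn2 and above them in Rag1, Il7r and Tcf7, while induced and wild-type marrow overlap in most genes.

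Neutrophil genes made up most of the 12 largest deficits of fetal liver. Of 20 tested late neutrophil genes 17 were lower and none higher than in induced marrow (15.0% and 17.7% of all genes). Against the line without vavcre 14 were lower and none higher (10.2% and 10.8% of all genes). The gelatinase Mmp9 rested on 7 counts over the fetal libraries and stood at 15.1 and 39.9 CPM without vavcre and 9.92 and 60.0 CPM with vavcre, a ratio of 266 (counting interval 129 to 663). Ngp, a granule protein, stood at 15.0, 1.35 and 0.401 CPM in fetal liver, 387 and 229 CPM without vavcre and 201 and 1327 CPM with vavcre (-6.36 ± 0.90, adjusted p = 7.54e-05). Chil3, Cd177, Retnlg, Mmp8, Lcn2 and Lrg1 followed the same order, as did Xdh, which encodes a purine enzyme. Their fetal levels were 0 to 1.36 CPM and their induced levels 3.22 to 223 CPM, with log2 differences from -7.43 to -6.02. Padi4, the enzyme that citrullinates histones in neutrophils, stood at 2.81 to 3.34 against 25.6 to 38.8 CPM (-3.34 ± 0.20, adjusted p = 2.34e-08). The amino acid enzyme Sdsl, which is no neutrophil marker, was among the largest deficits too (0.108 to 0.772 against 62.6 to 108 CPM, -7.70 ± 0.41, adjusted p = 5.90e-09).

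Libraries differed widely in these genes. The summed CPM of the late neutrophil list ran from 171 to 179.5 in fetal liver, from 1019 to 1290.5 without vavcre, from 763 to 3634 with vavcre and from 772 to 1651 in wild-type marrow. Replicate 6 of the vavcre line held the highest level, among the induced libraries, of each of Mmp9, Ngp, Cd177, Chil3, Retnlg, Mmp8, Lrg1 and Xdh. Without that library 16 of 20 members were still lower in fetal liver. The part of mature neutrophils in the sorted cells was not tested.

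Primary granule and monocyte genes gave mixed results. Of 12 tested primary granule genes 5 were lower and 1 higher in fetal liver than in induced marrow (15.0% and 17.7% of all genes). Against wild-type marrow 9 were lower in fetal liver (13.2% of all genes). Elane (neutrophil elastase) stood at 11.1, 20.2 and 22.2 CPM in fetal liver, 90.2, 53.6, 62.4 and 375 CPM in induced marrow and 256, 400.1 and 377 CPM in wild-type marrow. Ctsg (cathepsin G) stood at 38.1 to 60.1 CPM in fetal liver, 108 to 126 CPM in induced marrow and 202 to 291 CPM in wild-type marrow, with called differences of -1.27 ± 0.23 and -1.04 ± 0.22 at the 2 steps. Induced marrow was thus intermediate in Ctsg. Nkg7 stood at 43.7 to 56.6, 192 to 317 and 366 to 369.8 CPM in the same groups.

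Of 20 tested monocyte and dendritic genes 4 were higher and 3 lower in fetal liver than in induced marrow. These counts are near the shares of all tested genes (17.7% and 15.0%), so the values below describe single genes. Csf1r, the receptor for the macrophage growth factor, stood at 135, 156 and 132 CPM in fetal liver, 44.7, 34.5, 81.7 and 89.3 CPM in induced marrow and 91.5, 113 and 100.2 CPM in wild-type marrow (1.28 ± 0.16, adjusted p = 2.03e-05). The chemokine receptor Ccr2 stood at 47.0, 54.1 and 54.7 CPM in fetal liver and 17.6, 6.88, 3.17 and 36.4 CPM in induced marrow (1.74 ± 0.48, adjusted p = 0.0109), and its range in wild-type marrow (49.9 to 68.3 CPM) overlapped the fetal one. Both were called lower in induced than in wild-type marrow, by log2 differences of 0.80 and 1.94. The surface protein Ly6c2 went the other way between the wild types (1.20 to 2.64 CPM in fetal liver, 55.5 to 78.7 CPM in wild-type marrow) and stood between them in induced marrow (5.40 to 23.6 CPM).

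Part of the red cell, platelet and mast cell genes were lower in fetal liver, where 15.0% of all tested genes were. Of 29 tested erythroid genes 11 were lower and 1 higher than in induced marrow, of 20 megakaryocyte and platelet genes 9 were lower and none higher, and of 18 mast cell and basophil genes 9 were lower and 2 higher. Against the line without vavcre the lower counts were 10, 8 and 10, where 10.2% of all tested genes were lower. The per-library median of the erythroid list, relative to wild-type marrow, was 0.243 in fetal liver replicate 1 and -0.514 and -0.961 in replicates 4 and 5, so the fetal libraries did not agree in direction. Gata2, a transcription factor of early progenitors and mast cells, stood at 208, 229 and 227 CPM in fetal liver, 761 and 780 CPM without vavcre, 509 and 440 CPM with vavcre and 457 to 480 CPM in wild-type marrow (-1.45 ± 0.15, adjusted p = 3.68e-06). Nfe2, of erythroid and platelet cells, stood at 13 to 13.6 CPM against 27.4, 23.8, 52.5 and 61.6 CPM (-1.52 ± 0.18, adjusted p = 1.59e-05). The red cell surface genes Icam4 (15.8 to 17.6 against 31.5 to 56.0 CPM), Gypc (97.2 to 105 against 144 to 158 CPM) and Aqp1 (20.5 to 25.7 against 56.6 to 110.5 CPM) differed by -1.35 ± 0.11, -0.58 ± 0.07 and -1.75 ± 0.26. Tfrc, the transferrin receptor, was the erythroid member higher in fetal liver (111 to 149 against 51.4 to 106 CPM, 0.69 ± 0.18, adjusted p = 0.00884), a call lost without fetal liver replicate 1 (adjusted p = 0.0570).

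The platelet integrin Itgb3 stood at 16.6 to 20.9 against 45.9 to 62.3 CPM (-1.47 ± 0.19, adjusted p = 3.66e-05). The monoamine transporter Slc18a2 of mast cells stood at 57.7 to 69.7 against 204 to 234 CPM (-1.76 ± 0.15, adjusted p = 6.66e-07), and the signalling regulator Rgs1 at 4.18 to 5.92 against 32.8 to 88.6 CPM (-3.20 ± 0.31, adjusted p = 2.27e-06). The summed erythroid level ran from 1326 to 1666 CPM in fetal liver, 2895 to 3413 CPM in induced and 1942 to 2398 CPM in wild-type marrow. The summed mast cell level ran from 447 to 556, 1135 to 1643 and 1132 to 1231 CPM in the same groups. The makeup of the sorted cells was not tested.

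The labelled cell type was set against its markers. Of 15 CMP markers 3 had no count in any of these libraries, Kit and Cebpa among them, which have several overlapping transcripts whose shared reads the counting set aside. Of 12 tested, 1 was higher and 3 lower in fetal liver than in induced marrow (17.7% and 15.0% of all genes). The summed level of the markers was 5397 to 6973 CPM in fetal liver, 6375 to 11951 CPM in induced and 10770 to 12835 CPM in wild-type marrow. Among markers of other cells, 1 of 17 hepatocyte genes was higher and 1 lower in fetal liver (17.7% and 15.0% of all genes). The lower one was the transferrin gene Trf (93.5 to 101 against 206 to 359 CPM), and the list summed to 123 to 133 CPM in fetal liver and 259 to 400.2 CPM in induced marrow. Stroma and endothelium genes summed to at most 10.1 CPM in fetal liver and induced marrow. Of 13 island macrophage genes 2 were higher and 2 lower, among the latter Vcam1, which rested on 3 counts over the fetal libraries and on 134 over the induced ones (ratio 31.4, counting interval 10.5 to 154). Its call was lost without vavcre replicate 6 (adjusted p = 0.389).

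A last group set induced marrow apart from both wild types. Immediate early genes are switched on by cells within minutes of a stimulus. Of 20 tested, 14 were lower and none higher in fetal liver than in induced marrow (15.0% and 17.7% of all genes). In induced against wild-type marrow 13 were higher and none lower (6.59% and 7.86% of all genes). Between fetal liver and wild-type marrow 1 was higher and 1 lower (13.9% and 13.2% of all genes). Jun, a subunit of AP-1, stood at 20.1, 41.5 and 74.3 CPM in fetal liver, 444, 972, 627 and 689 CPM in induced marrow and 19.1, 14.6 and 14.1 CPM in wild-type marrow (fetal liver minus induced -3.92 ± 0.39, adjusted p = 2.95e-06; induced minus wild-type marrow 5.42 ± 0.42, adjusted p = 1.29e-05). The phosphatase gene Dusp1 stood at 14.2 to 23.8 CPM in fetal liver, 105, 213, 319 and 358 CPM in induced marrow and 18.5 to 23.2 CPM in wild-type marrow. Junb stood at 50.6 to 69.0 CPM, 159.7 to 465 CPM and 68.2 to 81.5 CPM in the same groups. All 4 induced libraries lay above all 6 wild-type libraries in these 3 genes. They were named for their small p, so that is no result about them. All induced libraries lay above all fetal ones in 13.8% of tested genes.

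The stress chaperones Hspa1a and Hspa1b moved with them. Hspa1a stood at 2.50, 4.74 and 12.7 CPM in fetal liver, 132, 295, 56.9 and 149 CPM in induced marrow and 8.87 to 12.7 CPM in wild-type marrow (-4.50 ± 0.56, adjusted p = 2.16e-05). Hspa1b stood at 13.8 to 35.1, 92.5 to 536 and 25.6 to 29.7 CPM in those groups (-3.50 ± 0.43, adjusted p = 2.20e-05). The 2 genes are near-identical and their reads may be split. Of 13 tested heat shock genes 3 were lower in fetal liver and 4 higher (15.0% and 17.7% of all genes), Hspd1 and Hsp90ab1 among the latter. The labels do not say how long each group's cells were held before lysis, and the part of handling in these levels was not tested.

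**Figure D4:**
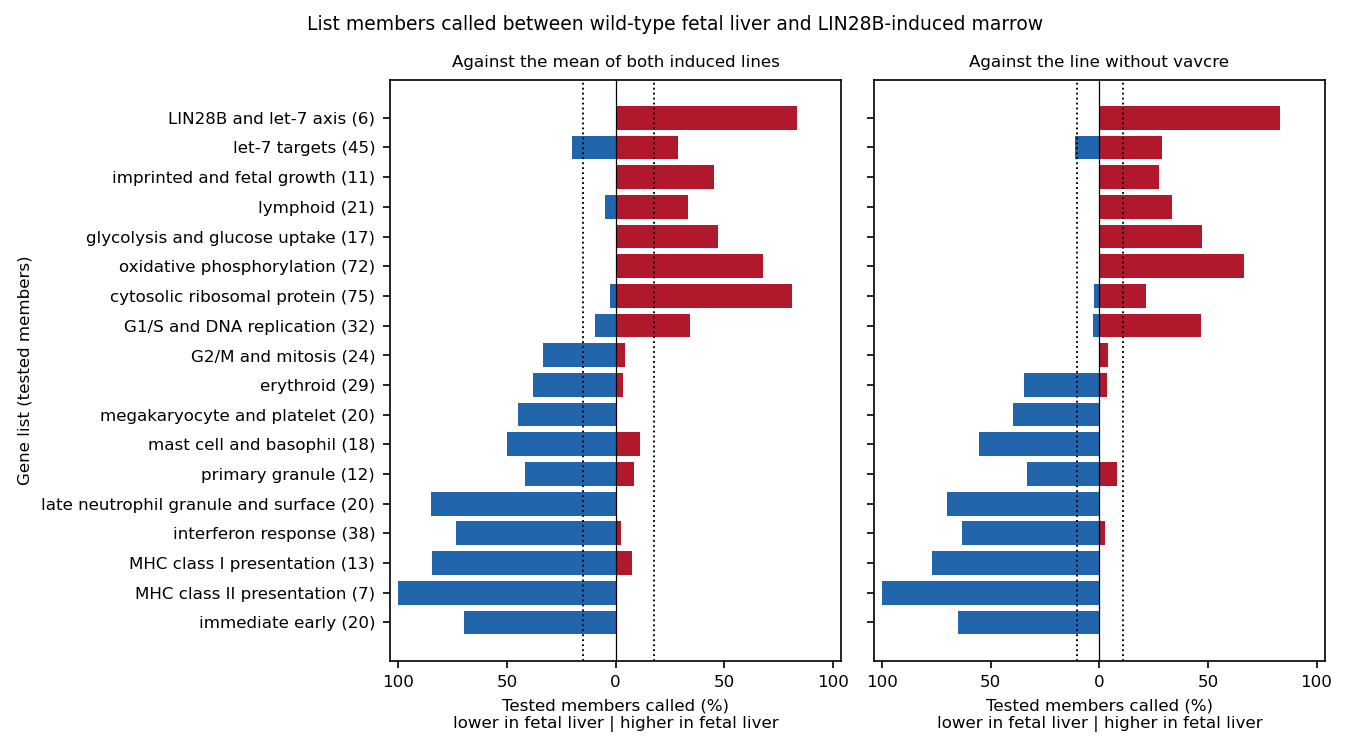
Share of the tested members of each list called higher (right, red) or lower (left, blue) in wild-type fetal liver than in LIN28B-induced marrow, against the mean of both lines and against the line without vavcre; dotted lines give the share of all tested genes called in that direction. The ribosomal protein bar falls from 61 to 16 of 75 and the G2/M bar from 8 to 0 of 24 when the vavcre line is left out, while the axis, oxidative phosphorylation, MHC class II and immediate early bars change little.

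In all, 2393 genes were higher and 2029 lower in fetal liver than in induced marrow, of which 875 (6.45% of tested genes) and 756 (5.58%) by at least 2-fold. Against the line without vavcre 1464 were higher and 1381 lower, and 2514 and 2378 against the line with vavcre (36.1% of tested genes). Wild-type fetal liver and wild-type marrow differed in 3677 genes (27.1%), and induced and wild-type marrow in 1958 (14.4%), 893 higher and 1065 lower. Against the line without vavcre the count was 1619 without its replicate 1 and 1821 without its replicate 5. The count between induced and wild-type marrow also rests on few libraries: it was 1166 without no-vavcre replicate 1, and 1095 and 1206 without wild-type marrow replicates 2 and 6. The lines differed from each other in 2799 genes (20.6%), 1270 higher and 1529 lower with vavcre, and in 1376 without no-vavcre replicate 5. Among those with the smallest p at 10 CPM or more were the transport protein Tmed2, the chaperone Ptges3 and the mitochondrial enzyme Sucla2, higher with vavcre, and Mast3 and Heatr5a, lower with vavcre. Tmed2 stood at 926 and 788 CPM without vavcre and 2009 and 1940 CPM with vavcre, while fetal liver (960.0 to 1033 CPM) was not called apart from the line without vavcre (0.22 ± 0.08, adjusted p = 0.0527).

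**Figure D5:**
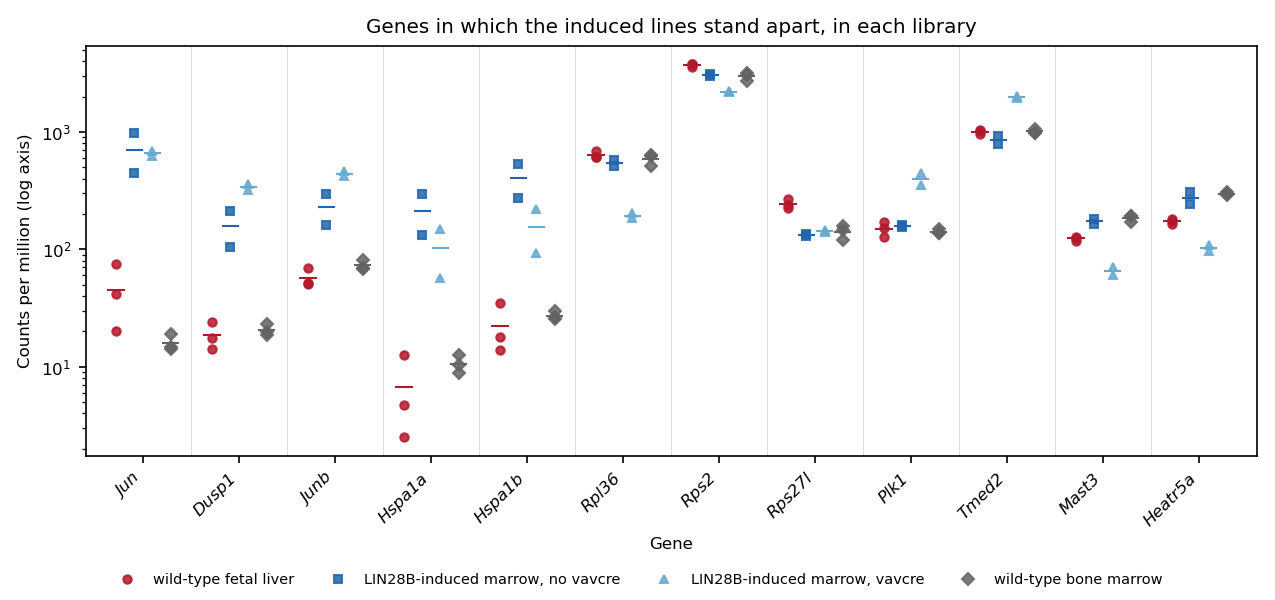
CPM (log axis) in each library of genes that set induced marrow, or the vavcre line alone, apart from both wild types; points are libraries and bars group means. Jun, Dusp1, Junb, Hspa1a and Hspa1b are high in all 4 induced libraries, whereas in Rpl36, Rps2, Plk1, Tmed2, Mast3 and Heatr5a the 2 vavcre libraries lie outside the range of the other libraries drawn. Rps27l instead sets fetal liver above all marrow libraries.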

How the data were processed

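Per the labels' protocols, total RNA of sorted cells was made into cDNA with the SMARTer ultra-low-input kit. Per the submitters' processing notes, the tools were cutadapt, TopHat2 and HTSeq, on build mm10. Their versions, settings and counting strand: not given in the sources used here. As deposited, the authors' files hold raw counts per RefSeq transcript (33818 accessions) with HTSeq's summary lines. Those lines (24.3% to 27.7% of uniquely placed reads ambiguous, 11.1% to 19.1% outside transcripts) entered neither library sizes nor tests. HTSeq sets aside reads that fit several transcripts, and 1328 of 5108 genes with several transcripts totalled 0. The share outside transcripts was lower in fetal liver (11.1% to 12.8%) than in induced (14.0% to 15.6%) and wild-type marrow (18.1% to 19.1%).

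RefSeq named 33431 accessions and GENCODE vM21 another 195, while 192 stayed unnamed. Transcripts of a gene were added up (24416 genes). edgeR 4.0.16 in R 4.3.3 (TMM, filterByExpr, quasi-likelihood) fitted all 17 libraries with 7 group means, which was tested on simulated data. Intervals of differences use the fit's degrees of freedom at 95%. Counting ratios pool the counts of a group, with exact conditional 95% intervals and a floor of 3 counts for 0. Tables and figures used Python 3.11.15, pandas 2.3.3, scipy 1.17.1 and matplotlib 3.10.9. List medians per library used log2(CPM + 0.1) over members at 1 CPM or more.

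Named genes were the axis list, the 12 largest called differences each way without overlap at 10 CPM or more in the higher group, up to 3 called members per list and direction by smallest p (4 in lists of over 20 tested), and up to 3 per direction between the lines. The rule passes over Xist, genes on the Y chromosome (both shown as a check), pseudogenes, predicted genes and small RNAs, and some genes the rule selects are not printed. Outside the rule are Arid3b, E2f5, Dicer1, Nras, Cbx2, Ddx19a, Ccnd1, Dna2, Tgfbr1, Igf2r and B2m. The comparison, gene lists and rules were chosen with earlier results of these data known. Alternatives were other scaling (DESeq2 1.42.0 size factors), the DESeq2 Wald test, no filter, 10 libraries, genes of 1 transcript, the induced libraries as 1 group, a replicate block, autosomal genes and each library left out.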

Additional observations from a re-analysis of the deposited data

Results flagged for a closer look

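The fit with all 17 libraries tested whether the gap to fetal liver differed between the lines (edgeR adjusted p under 0.05, vavcre minus no vavcre on the log2 scale, where the fetal liver term cancels). It did for 35 of the 108 genes followed, beside 20.6% of all tested genes. Of the 35, Rps2, a ribosomal protein gene, is not described above. Tmed2, Ptges3, Sucla2, Mast3 and Heatr5a were among genes named for their small p in this same comparison, and Xist and Ddx3y are sex checks. The count includes these genes, and their calls are no result about them. Sex, line and the distance between the vavcre libraries cannot be told apart in these values.

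Among genes lower in fetal liver, the difference was 2.03 for Ifi44, 2.19 for Cd177, 0.47 for Lgals3bp, 0.80 for Cmpk2, 1.16 for Nfe2, 0.71 for Trf and 0.81 for Gatm, so the vavcre line stood further from fetal liver. It was -1.03 for H2-K1, -0.83 for Icam4 and -0.70 for Gata2, so the vavcre line stood closer. Among genes higher in fetal liver it was 1.98 for Il7r, 1.11 for Csf1r, 0.43 for Gins2 and 0.86 for Ptges3, and it was negative for Xpo5 (-0.74), Fjx1 (-2.94), Ninl (-2.06), Sox18 (-5.65, with 0 counts in the vavcre libraries, so the value depends on the prior count), Hspd1 (-0.41), Hsp90ab1 (-0.30), Atp5a1 (-0.30), Atp5b (-0.55), Rpl36 (-1.49) and Rps2 (-0.48).

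In Nras the lines differed by 0.35, in Plk1 by 1.34, in Hmmr by 0.87, in Dusp1 by 1.09, in Junb by 0.95, in Tmed2 by 1.20 and in Sucla2 by 1.10, all higher with vavcre. Mast3 and Heatr5a each differed by -1.41. Xist differed by 6.87 and Ddx3y by -5.99.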

How the results depend on the processing

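The number of genes called between fetal liver and induced marrow (4422) was 4420 with DESeq2 size factors, 4733 with the DESeq2 Wald test, 4201 with no filter on low counts, 4225 with 10 libraries, 4120 with genes of 1 transcript, 3169 with the induced libraries as 1 group and 4304 with autosomal genes only, the last chosen after seeing the data. A limit of at least 2-fold left 1631. Leaving out 1 library gave 3435 to 4899 here, 1619 to 2400 against the line without vavcre, 4094 to 4888 against the line with vavcre, 2792 to 3176 between the wild types, 1095 to 2672 between induced and wild-type marrow, and 1376 to 3152 between the lines. For the other 5 comparisons, DESeq2 size factors, the DESeq2 Wald test, no filter, 10 libraries and genes of 1 transcript kept each count within 1.5 times its value, and the remaining alternatives were run for the first comparison only.

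Same-numbered fetal and induced libraries deviated from their group means with correlations of -0.006, -0.016 and 0.02. The induced mean was taken over both lines, so line differences enter these values. They cannot tell whether replicate numbers pair the libraries. On the 7 libraries alone, a replicate block gave 1147 calls, and the same fit with no replicate block, chosen after seeing the data, 1781.

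No named gene changed direction under any alternative where the main fit or the alternative called it. Changes of sign between fits without a call were not counted. Named calls lost were 4 with the induced libraries as 1 group, at most 2 for each library left out, 14 on the 7 libraries with no block and 13 with the block, among them Igf2r, Tgfbr1, Tnrc6c, Tfrc, Plk1, Hmmr, Rpl36 and Rps19 in both. Ribosomal protein members called higher numbered 59 to 62 of 75 with any 1 of the 7 libraries left out, interferon members called lower 25 to 28 of 38, and late neutrophil members called lower 15 to 18 of 20. With the induced libraries as 1 group, on the 7 libraries with no block and on them with the block, the ribosomal count was 43, 18 and 6, the interferon count 27, 23 and 19, the late neutrophil count 17, 14 and 14, and the count of oxidative phosphorylation members called higher (49 of 72) 41, 25 and 12. The median of the imprinted list (1.85) was 1.03 with the DESeq2 Wald test, 1.01 with 10 libraries, 0.98 with the induced libraries as 1 group, 4.17 with genes of 1 transcript and 0.77 with no filter. Depth limits genes near 0: a count of 0 over the vavcre line allows up to 3 counts.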
